A study of Mus musculus with 2 samples.

Results

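Venous endothelial cells of the aged mouse bladder were described from 2 single-cell RNA libraries, 330 cells of the 11660 used from both libraries together. The cells came from 1 male mouse aged 25 months of the genotype p16-CreERT2/R26-LSL-tdTomato, in which a tamoxifen-activated Cre is made where the p16 gene is active and leaves a permanent tdTomato mark. Tamoxifen was injected into the abdomen on 5 consecutive days, the bladder was taken 2 weeks later, and live CD45-negative cells were sorted into a tdTomato-negative (Tom-) and a tdTomato-positive (Tom+) library. Both libraries therefore share the animal, the alleles, the tamoxifen and the removal of CD45-positive blood cells, and were split by the tdTomato gate. The mark records past activity of the p16 driver in the cell or its ancestors, and it does not measure p16 at the time of harvest. With 1 library per group from 1 animal, no difference between the libraries has a replicate check. No p-value is given, and every interval below is a 95% interval that covers counting error only.

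A cell was taken as venous endothelial when it passed 5 steps, of which the last is the one that sets it apart from its neighbours. It had at least 1000 unique molecules (UMIs), 500 genes and under 15% mitochondrial UMIs. It held at least 5 UMIs per 10000 of Pecam1, Cdh5, Egfl7 and Cldn5 together, with 2 of them detected, and under 20 per 10000 of the fibroblast genes Col1a1, Col1a2, Col3a1 and Dcn. Fewer than 2 of the lymphatic genes Prox1, Mmrn1, Reln and Flt4 were detected, and the arterial genes Sema3g, Gja4 and Hey1 had fewer than 2 UMIs together. At least 2 UMIs of Selp and Lrg1 together then made the cell venous. Cells that met every step but the last are called capillary here, and cells with 2 or more UMIs of the arterial genes arterial. The rule found 218 venous cells among 9919 used cells of the Tom- library and 112 among 1741 of the Tom+ library.

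Veins, and above all the small venules behind the capillaries, are where white blood cells leave the blood. Their endothelium stores P-selectin (Selp) and von Willebrand factor (Vwf) in granules that fuse with the surface within minutes of a stimulus, and it displays chemokines and adhesion molecules such as Ackr1, Vcam1 and Icam1. The vein fate depends on the nuclear receptor COUP-TFII (Nr2f2), which holds back the Notch signal that makes arteries. Plvap forms the diaphragms of endothelial fenestrae and caveolae, Lrg1 encodes a secreted glycoprotein that modulates TGF-beta signalling and is induced through STAT3, and Tmem252 encodes a small membrane protein.

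The 250 bases before the RefSeq start are shown for 3 genes that mark these cells, because 2 of them hold the short motif that COUP-TFII and other nuclear receptors bind and the third holds a STAT-type palindrome. Capitals mark AGGTCA on either strand (TGACCT as printed) in Selp and Tmem252, and TTCNNNGAA in Icam1. The windows are chr1:164115014-164115263 for Selp, chr19:24673758-24674007 for Tmem252 and chr9:21015690-21015939 for Icam1, all on the plus strand of RefSeq's GRCm38.p6, 5′ to 3′.
Selp: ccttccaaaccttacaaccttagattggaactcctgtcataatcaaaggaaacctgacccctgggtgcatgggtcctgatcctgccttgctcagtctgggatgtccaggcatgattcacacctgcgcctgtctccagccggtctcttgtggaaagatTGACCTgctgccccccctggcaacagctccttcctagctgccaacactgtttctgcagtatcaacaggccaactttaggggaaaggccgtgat
Tmem252: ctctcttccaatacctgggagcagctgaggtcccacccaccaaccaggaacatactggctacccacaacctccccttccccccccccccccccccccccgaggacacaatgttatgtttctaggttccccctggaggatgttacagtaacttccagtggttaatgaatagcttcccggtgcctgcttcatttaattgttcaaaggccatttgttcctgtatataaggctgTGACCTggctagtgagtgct
Icam1: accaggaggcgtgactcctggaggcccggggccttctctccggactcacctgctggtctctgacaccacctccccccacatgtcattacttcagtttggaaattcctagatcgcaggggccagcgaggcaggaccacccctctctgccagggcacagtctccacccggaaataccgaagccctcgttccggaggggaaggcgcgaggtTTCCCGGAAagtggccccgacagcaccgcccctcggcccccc
The capitals lie 93 to 88 bases before the start in Selp, 20 to 15 bases before it in Tmem252 and 42 to 34 bases before it in Icam1. AGGTCA on either strand was in 12 of the 88 windows of genes higher in venous than in capillary cells (13.6%), in 9.54% of the 2045 windows of measured genes and in 13.8% of all 22862 windows with a single start. TTCNNNGAA, which reads the same on both strands, was in 10 of those 88 windows (11.4%), in 5.04% of the measured genes and in 7.23% of all windows. Of the 140 higher genes and the 3254 measured genes, 19 and 539 had several listed starts and were left out with those that had no window. The other motifs searched on both strands were a consensus for NF-kappaB, the AP-1 motif TGANTCA, the GATA motif AGATAA, the ETS motif AGGAAG, the start TGACG of the CRE element and the TATA box TATAAA. In the order given, they were in 3.41%, 4.55%, 7.95%, 26.1%, 25.0% and 9.09% of the 88 windows. Their shares of the measured genes were 1.08%, 4.40%, 4.69%, 27.6%, 30.5% and 7.19%. The printed Selp window also holds an AP-1 match 139 to 133 bases before the start and an ETS match 64 to 59 bases before it. A match is a run of letters and not a measured binding site.

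The markers of the label are given as a description, since the rule required endothelial genes and Selp with Lrg1, and held these 2 genes under 2 UMIs in capillary cells. All 14 pan-endothelial and all 20 venous marker genes were found in both libraries, and venous markers had a summed level of 7040 in Tom- and 7465 in Tom+, in counts per 1000000 UMIs (CPM), the gate genes Selp and Lrg1 included. In capillary cells the same sum was 3328 CPM in Tom- against 2763 in Tom+, where Ackr1, Vcam1 and Sele had no UMI. The median depth was 9862 UMIs in Tom- and 8913 UMIs in Tom+ venous cells, against 5074 and 5521 UMIs in capillary cells, and a threshold of 2 UMIs favours deeper cells. Of 10 leukocyte markers 5 had a UMI in Tom- and 4 in Tom+ venous cells, at sums of 85.1 and 122 CPM, with Ptprc, Tyrobp, Cd3e and Csf1r at 0 in both. Of 6 platelet markers 3 and 1 had a UMI (8.51 and 14.9 CPM), with Gp9, Gp1bb and Treml1 at 0. Of 15 arterial markers 13 and 12 had a UMI, at sums of 776 and 757 CPM, with Gja5 and Gkn3 at 0. Of the venous cells, 0 in Tom- and 5 in Tom+ had a barcode that also occurs in the other library, among 966 barcodes found in both.

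Other classes were present at levels that differed between the libraries, and these touch the comparisons below. Cells with at least 20 UMIs per 10000 of 11 urothelial markers are called urothelium-rich: they were 22 of the Tom- venous cells, with 30.4% of the UMIs, and 6 of the Tom+ venous cells, with 17.8%. They held 94.9% and 95.7% of the urothelial marker UMIs of the venous cells, and their median depth was 38797 and 34643 UMIs. The doublet caller Scrublet marked 11 of the 22 and none of the 6. Over all venous cells the 11 urothelial markers, all detected, summed to 2379 CPM in Tom- (0.0 to 110.3 per 10000 UMIs in single cells) and 1487 CPM in Tom+ (0.0 to 98.7 per 10000), and to 176 and 78.6 CPM without the urothelium-rich cells. The 10 fibroblast markers, all detected, summed to 917 CPM in Tom- (2.17 to 34.9 per 10000) and 287 CPM in Tom+ (0.0 to 17.2 per 10000). The 5 erythroid markers summed to 6341 CPM in Tom- against 48.8 in Tom+, where Alas2 had no UMI. A single Tom- cell held 88.3% of that Tom- sum, and the median cell held 5.33 erythroid UMIs per 10000 in Tom- and 0.0 in Tom+.

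**Figure D1:**
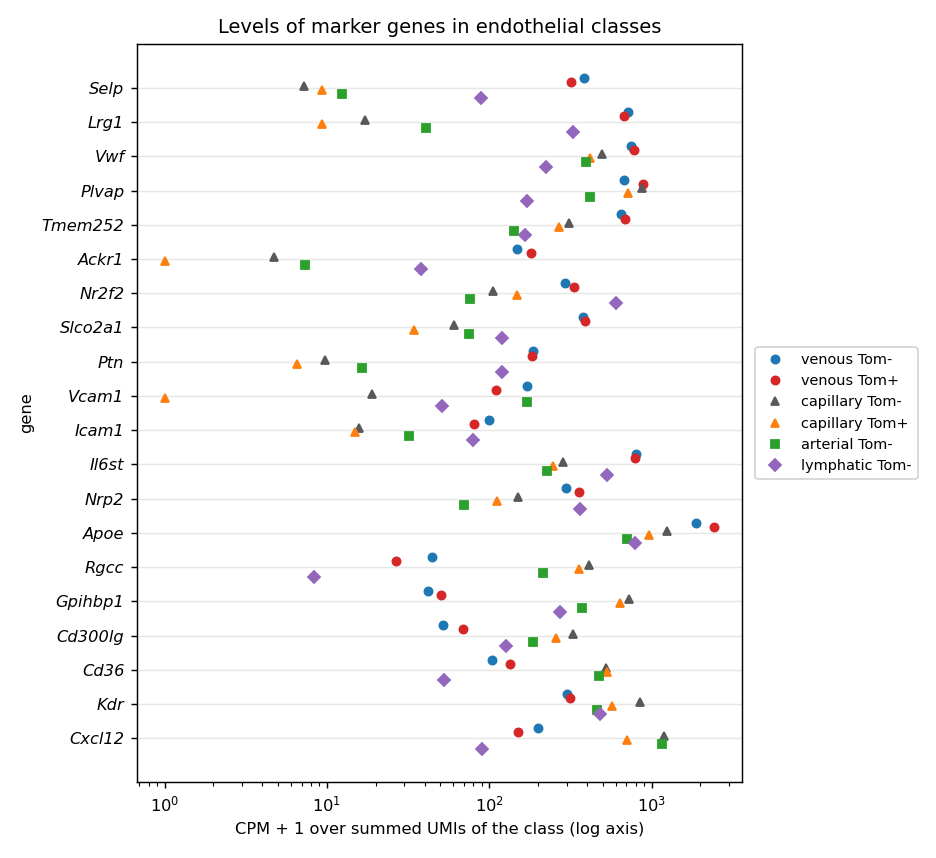
Levels of 20 genes in endothelial classes, as CPM plus 1 over the summed UMIs of each class (log axis): circles are venous cells, triangles capillary cells, squares Tom- arterial and diamonds Tom- lymphatic cells. Selp and Lrg1, which chose the venous cells, and Ackr1, Ptn and Slco2a1 stand to the right in both venous libraries, whereas Rgcc, Gpihbp1 and Cd300lg stand to the left of their capillary points.

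Venous cells made up a larger part of the blood endothelium in the Tom+ library. They were 218 of 591 venous, capillary and arterial cells in Tom- (36.9%, exact Clopper-Pearson interval 33.0 to 40.9%) and 112 of 160 in Tom+ (70.0%, 62.3 to 77.0%). Capillary cells were 36.9% in Tom- and 26.9% in Tom+, and arterial cells 26.2% (155 cells) and 3.13% (5 cells). The sort on tdTomato set which cells entered each library, so these are shares within each sorted library and not shares of the bladder. When every cell was first thinned to 2000 UMIs, the venous shares were 22.4% and 35.6%, and with Selp required they were 29.6% and 58.75%. The order of the libraries was the same in each of these counts.

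Selp and Lrg1 chose the cells, and their values are a description. Selp was 383 CPM in Tom- against 316 in Tom+ venous cells, with a UMI in 80.3% and 83.9% of them. Lrg1 was 717 and 671 CPM, with a UMI in 95.4% and 95.5% of cells. Both genes were found in 165 Tom- and 89 Tom+ cells, Lrg1 alone in 43 and 18, and Selp alone in 10 and 5. In cells with Lrg1 alone, the capillary genes Rgcc (167 CPM in Tom- and 141 in Tom+) and Gpihbp1 (143 and 239 CPM) were higher than in cells with both genes, at 18.6 and 7.95 CPM for Rgcc and 20.5 and 19.9 CPM for Gpihbp1. The lymphatic cells, left out by the rule, also carried these genes: 84 Tom- and 32 Tom+ lymphatic cells had at least 2 UMIs of Selp and Lrg1.

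Levels of other genes on both sides of the threshold are given as a description. Just outside it, 36 Tom- and 6 Tom+ capillary cells had 1 UMI of Selp and Lrg1, and just inside it 19 and 15 venous cells had exactly 2. Ackr1 was 0.0 CPM in Tom- cells with no such UMI, 21.6 CPM with 1 UMI, 47.04 CPM with 2, 78.0 CPM with 3 to 5, 108 CPM with 6 to 10 and 199.9 CPM with more than 10. Gpihbp1 ran the other way in the same cells, from 773 CPM through 479.9, 123, 36.0 and 54.1 CPM to 27.8 CPM. Cxcl12 was at 1226, 1032, 253, 326, 245 and 130.5 CPM in the same order. In the Tom+ cells with exactly 2 UMIs, Gpihbp1 was 265 CPM and Rgcc 188 CPM, so that some cells near the threshold carried capillary genes. Cells with 2 to 5 UMIs were 19 and 44 of the 218 Tom- and 15 and 30 of the 112 Tom+ venous cells.

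**Figure D2:**
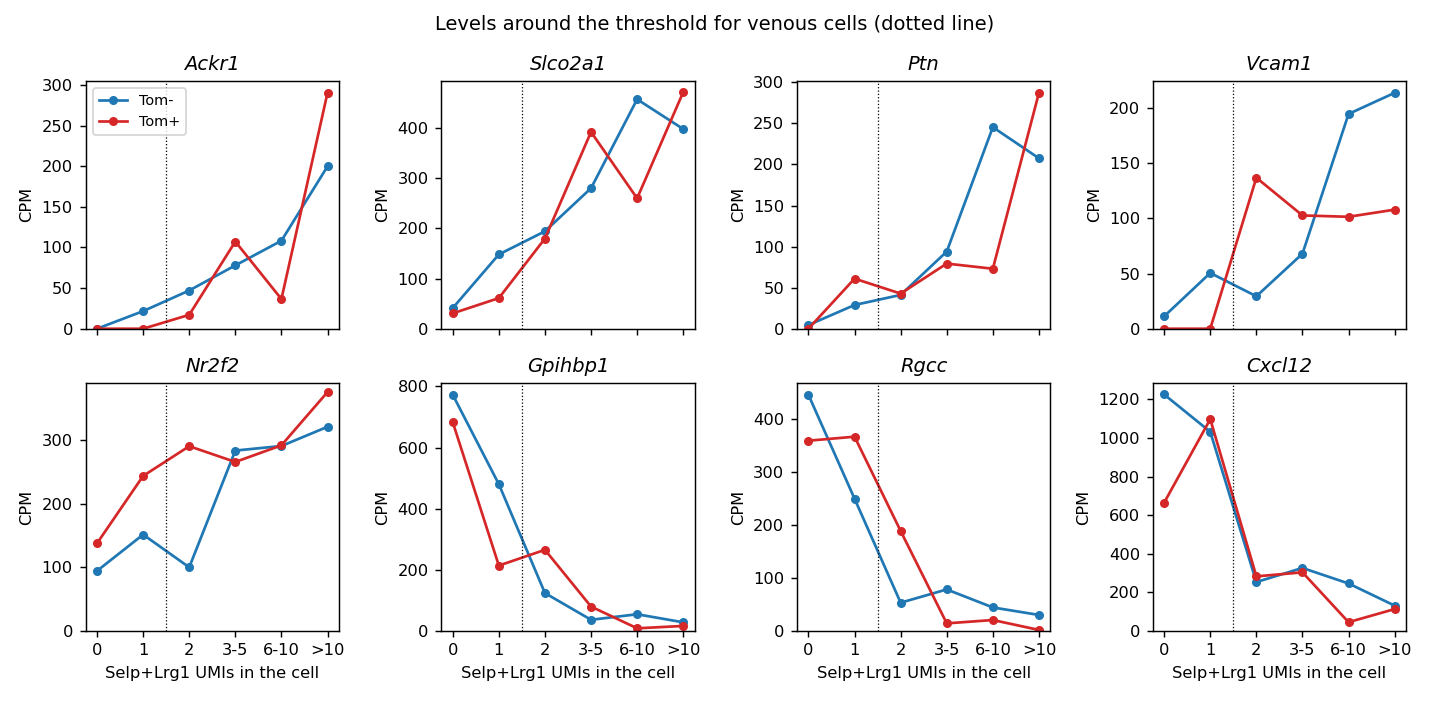
Levels of 8 genes (CPM over summed UMIs, linear axes) in capillary and venous cells grouped by the number of Selp and Lrg1 UMIs in the cell, for Tom- (blue) and Tom+ (red). The dotted line is the threshold of 2 UMIs. In Tom-, Ackr1, Slco2a1 and Ptn are lowest and Gpihbp1, Rgcc and Cxcl12 highest in cells with 0 UMIs. Tom- Slco2a1 is 148 CPM with 1 UMI and 194 CPM with 2, on the 2 sides of the line. The first and last Tom- Ackr1 points are 0.0 and 199.9 CPM.

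Venous cells were then set beside capillary cells within each library, to describe what they share beyond the 2 genes that chose them. A gene counted as measured with at least 50 CPM in 1 group and 20 UMIs, and as higher or lower when it differed at least 1.5 times, with 1 CPM added to each level, in both libraries. Of 3254 measured genes, 140 were higher in venous cells (4.3% of all) and 253 lower (7.78%), at a median log2 ratio of -0.12 over all genes in each library. The rule made this contrast, so these counts describe the cells and are not evidence for their name. When the urothelium-rich cells of both classes were left out, 170 genes were higher, 123 of them among the 140, and 386 lower.

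Ackr1, the atypical chemokine receptor that carries chemokines across venular walls, had the highest ratio by the rule for named genes. Its gene lies at chr1:173331886-173333750 on the minus strand of GRCm38, on the same chromosome as Selp (chr1:164115264-164150026, plus strand), by the GENCODE vM21 annotation. Venous cells held 148 CPM in the Tom- and 179.6 CPM in the Tom+ library, beside 3.72 CPM (6 UMIs) in Tom- capillary cells and no UMI in Tom+ capillary cells. The ratio was 39.7 (18.1 to 108.8) in Tom-, and in Tom+ the venous level was at least 21.5-fold higher, counted against a limit of 3 UMIs in the capillary cells. Ackr1 had a UMI in 50.9% of Tom- and 48.2% of Tom+ venous cells, at median depths of 9862 and 8913 UMIs, and in 14.2% and 10.8% of fibroblasts, at 11837 and 8616 UMIs, where its level was 15.0 and 14.2 CPM.

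Ptn, which encodes the growth factor pleiotrophin, was 184 and 183 CPM in venous and 8.68 and 5.57 CPM in capillary cells. The prostaglandin transporter gene Slco2a1 (chr9:102988712-103096002, plus strand) was 376 and 386 CPM in venous and 59.5 and 33.4 CPM in capillary cells, at ratios of 6.32 (5.12 to 7.87) and 11.6 (6.55 to 22.5). It was seen in 87.6% of Tom- and 83.9% of Tom+ venous cells and in 3.62% and 1.82% of fibroblasts. After thinning to 2000 UMIs a Slco2a1 UMI was left in 54.4% of 215 and 55.6% of 108 venous cells, and in 7.92% of 202 and 10.0% of 40 capillary cells. Of the 215 thinned Tom- venous cells 50 held Ackr1, 117 Slco2a1 and 31 both. None of the 50 held a UMI of the capillary gene Rgcc, but only 9 of the 215 did, too few to read anything from this. Whether these genes share or avoid cells was not tested.

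The adhesion genes of leukocyte traffic stood apart from each other. Vcam1, the ligand of the integrin VLA-4, was 171 and 108 CPM in venous cells, 18.0 CPM in Tom- capillary cells and without a UMI in Tom+ capillary cells, a ratio of 9.51 (6.53 to 14.4) and at least 13.0-fold. Icam1, the ligand of leukocyte beta-2 integrins, was 98.1 and 79.5 CPM against 14.9 and 13.9 CPM. Sele, the cytokine-induced E-selectin, was low at 17.8 and 9.11 CPM and was not among the measured genes. Of 15 measured genes for leukocyte adhesion and transmigration, 4 were higher (Selp, Ackr1, Vcam1 and Icam1) and 4 lower: the sialomucins Cd34 (ratios 0.517 and 0.593) and Podxl (0.359 and 0.472), the junction protein gene Jam3 (0.154 and 0.357) and the sulfotransferase gene Chst2 (0.328 and 0.493). The other 7, Pecam1 and Icam2 among them, lay between. Over all measured genes 4.3% were higher and 7.78% lower.

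Of the remaining highest genes, Fgl2, which encodes a fibrinogen-like protein, was 207 and 174 CPM against 24.8 and 25.05 CPM. Pgm5, Ccdc3, Wipf3, Lbp, Adgrg6, Cytl1, Gpr182 and the small GTPase gene Gem were also among them, with ratios from 4.82 (Adgrg6, Tom+) to 27.7 (Wipf3, Tom+) where capillary cells had a UMI, and Cytl1 at least 12.5-fold higher in Tom+. Not all of these were highest in veins. In the Tom- library Fgl2 was 2506 CPM and Lbp 541 CPM in lymphatic cells, above their venous levels. Wipf3, Pgm5 and Gpr182 were also higher there, at 213, 189 and 88.1 CPM against 69.9, 159 and 59.6 CPM in Tom- venous cells. Nr2f2, not among the highest genes, was 605 CPM in Tom- lymphatic cells. In Tom- arterial cells Cytl1 was 327 CPM and Vcam1 171 CPM, its level in Tom- venous cells. Lbp was also abundant in fibroblasts, at 437 CPM in Tom-.

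**Figure D3:**
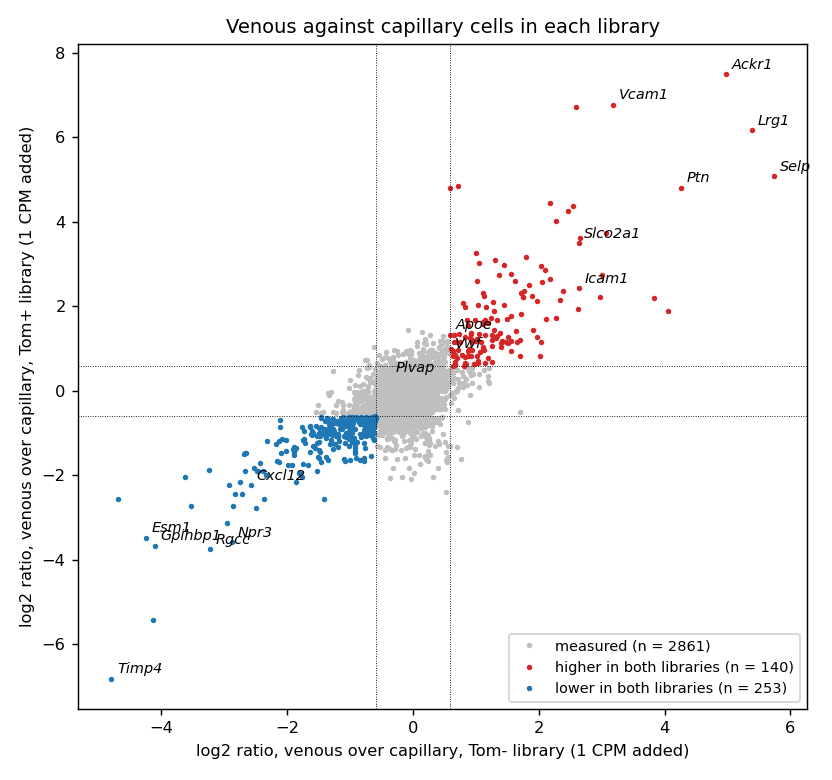
Log2 ratio of venous over capillary cells in the Tom- library (x) and the Tom+ library (y) for 3254 measured genes, with 1 CPM added to each level. Dotted lines mark 1.5 times; 140 genes (red) lie past it upward and 253 (blue) downward in both libraries, with Ackr1 and Ptn at the high end and Gpihbp1, Esm1 and Timp4 at the low end.

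The marker genes named for venous cells did not all separate them from capillaries. Tmem252 was 646 CPM in the Tom- and 686 CPM in the Tom+ venous cells, beside 311 and 269.9 CPM in capillary cells, at ratios of 2.08 (1.88 to 2.303) and 2.54 (2.06 to 3.17). Vwf was 742 and 779 CPM against 495 and 417 CPM, and its Tom- ratio of 1.497 (1.38 to 1.63) lay just under the limit. With the urothelium-rich cells left out, the Vwf ratio was 1.60 in Tom- and 1.30 in Tom+, so that the libraries changed sides of 1.5 times. Plvap was 675 and 887 CPM against 869 and 712 CPM, lower than in capillaries in Tom- (ratio 0.777) and higher in Tom+ (1.24), but lower in both without the urothelium-rich cells (0.824 and 0.922), which held 44.1% of the Tom+ capillary UMIs. The venous receptor gene Ephb4 was as high in capillary cells, at 86.2 and 105 CPM against 88.0 and 103 CPM. In all, 14 of 18 measured venous markers were higher in venous cells, Selp and Lrg1 by the rule itself, beside 4.3% of all genes, and 9 of 12 measured capillary markers were lower, beside 7.78%. Nothing is read from these counts, since the rule made the contrast.

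Regulators of vein and artery identity differed by kind. Nr2f2 was 294 and 331 CPM in venous and 104 and 147 CPM in capillary cells, and Nrp2, a co-receptor for semaphorins and VEGF-C, was 295 and 358 CPM against 149 and 111 CPM. Of 18 measured genes for arteriovenous transcription factors and Notch, 4 were higher: Nr2f2, Nrp2, the forkhead gene Foxc1 (ratios 3.24 and 2.26) and the Notch ligand gene Dll1 (4.34 and 2.27). Lower were 6: Sox17 (0.379 and 0.530), Notch4 (0.129 and 0.170), the ligands Dll4 (0.231 and 0.446) and Jag2 (0.491 and 0.400), Efnb2 (0.228 and 0.549) and Nrp1 (0.384 and 0.461). The receptor gene Notch1 was near even, at 0.846 and 0.714. These counts stand beside 4.3% higher and 7.78% lower over all measured genes.

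Angiogenic and lipid handling genes held members that were lower in venous cells, beside 7.78% of all genes. Of 12 measured VEGF, angiopoietin and apelin genes 6 were lower, among them Kdr, the main VEGF receptor, at 300.1 and 312 CPM against 846 and 570.5 CPM, Flt1 (0.398 and 0.530), Pdgfb (0.292 and 0.548) and the tip-cell gene Esm1 (0.0498 and 0.0843), 1 (Nrp2) was higher and 5 lay between. Gpihbp1, which carries lipoprotein lipase to the capillary lumen, was 41.1 and 49.7 CPM in venous and 722 and 640.1 CPM in capillary cells. Of 14 lipid handling genes 6 were lower, with the fatty acid transporter Cd36 at 0.198 and 0.2505 and the fatty-acid-binding protein gene Fabp4 at 0.365 and 0.312, while Apoe (1885 and 2430 CPM in venous cells, ratios 1.51 and 2.51) and the cholesterol 25-hydroxylase gene Ch25h (1.81 and 1.57) were higher. Timp4, Rgcc, Rbp7 and Npr3 were the other lowest genes, with Timp4 at 1.48 CPM in Tom- and no UMI in Tom+ venous cells, at least 44.8-fold lower than in Tom+ capillary cells.

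The matrix genes split by kind, beside 4.3% of all genes higher in venous cells and 7.78% lower. Of 20 measured basement membrane and matrix genes, 10 were lower in venous cells, including the type IV collagen genes Col4a1 (131 and 136 CPM against 681 and 809.8 CPM) and Col4a2 (ratios 0.179 and 0.268), the laminin genes Lama4 and Lamb1, the perlecan gene Hspg2 (0.499 and 0.598), Sparc and Sparcl1. The 3 higher genes were the calcification inhibitor Mgp, at 1610.1 and 1517 CPM against 593 and 192 CPM, the elastic-fibre gene Fbln5 (3.39 and 5.29) and the proteoglycan gene Bgn (1.52 and 37.5). Mgp and Fbln5 were also high in Tom- arterial cells, at 1656 and 177 CPM.

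Genes of blood clotting, stored cargo and vessel tone included several with higher venous levels, beside 4.3% of all genes higher and 7.78% lower. Of 11 measured genes for storage granules and secretion 4 were higher and 1 lower: Selp, the endothelin precursor Edn1 (ratios 1.67 and 2.57), Clu (2.496 and 8.92) and the protein C receptor gene Procr (3.77 and 4.83) against Igfbp7 (0.384 and 0.529). Of 9 coagulation and fibrinolysis genes 2 were higher, Procr, at 199 and 215 CPM against 52.7 and 44.5 CPM, and Adamts1 (3.82 and 2.75), and none was lower. Coagulation factor VIII, F8, was below the level for measurement in this contrast, at 55.9 and 43.0 CPM in venous and 13.6 and 2.78 CPM in capillary cells. The thrombin receptor partner Thbd was level, at 1.02 and 1.04. Of 7 measured prostaglandin, nitric oxide and vasoactive genes, Slco2a1, Edn1 and the cyclooxygenase gene Ptgs1 (1.77 and 1.57) were higher and the endothelin receptor gene Ednrb (0.171 and 0.275) lower, while Nos3 lay between at 1.12 and 1.81.

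Cytokine signalling genes were split in the same way, beside 4.3% of all genes higher in venous cells and 7.78% lower. Of 12 measured cytokine receptor and STAT3 genes 5 were higher: the shared IL-6-family receptor Il6st, at 803 and 793 CPM against 285 and 245 CPM, the feedback inhibitor Socs3 (493 and 353 CPM against 189 and 136 CPM), Cebpb, Cebpd and the gate gene Lrg1. Il10rb was lower (0.343 and 0.418), and Stat3 itself was level at 0.972 and 1.07. None of 21 measured interferon-stimulated genes was higher and 14 were lower, with Rsad2 at 47.7 and 70.4 CPM against 562 and 470.3 CPM, Ifit3 at 0.192 and 0.435 and Isg15 at 0.292 and 0.438. Of 12 antigen presentation genes Cd74, the invariant chain of MHC class II, was higher (3.01 and 2.27) and the rest lay between. The chemokine gene Cxcl12 was 199 and 149 CPM in venous cells against 1192 and 704 CPM in capillary cells, and its scavenger Ackr3 was also lower (0.365 and 0.506).

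Of all measured genes 4.3% were higher in venous cells and 7.78% lower. Genes that the dissociation of tissue can induce were higher in venous cells for 8 of 21 measured and lower for none. Among them were Atf3 (357 and 265 CPM against 87.4 and 150.3 CPM), Junb (ratios 2.09 and 1.90), Egr1 (1.96 and 1.55), Zfp36, Socs3 and Dusp2 (19.4 and 3.82). Socs3 is counted in this list and in the STAT3 list. Of the flow-responsive genes, Klf2 was higher at 1164 and 1206 CPM against 654 and 696 CPM, and Klf4 lay between at 1.38 and 1.54. Of the remaining lists, 2 of 14 BMP and TGF-beta genes were higher (Bmp4, and Lrg1 through the rule), 2 of 5 NF-kB genes were (Icam1 and Vcam1, counted above), and Ehd4 and Slco2a1 were the 2 higher of 16 genes of fenestrae, caveolae and junctions, where Cav2 and the gap junction gene Gja1 were lower. The mitotic genes Mki67 and Top2a gave 4 and 0 UMIs in Tom- and none in Tom+ venous cells, where a count of 0 limits the share of cells with a UMI, not of cells that express the gene, to 2.68%.

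The reporter checks the labels of the sort. In venous cells tdTomato was 93.6 CPM in Tom- against 2259 in Tom+, a ratio of 24.1 (21.2 to 27.6), with a UMI in 52.3% and 97.3% of cells. Gt(ROSA)26Sor, which is transcribed at the site of the reporter allele, was 9.62 and 51.3 CPM, a ratio of 5.33 (3.32 to 8.79). The tdTomato level in Tom- venous cells was above the 24.2 CPM of Tom- fibroblasts, where 20.9% of cells had a UMI, and beside 80.6 CPM in Tom- capillary cells (ratio 1.16, 0.936 to 1.45). Cdkn2a, the gene that encodes p16, had 1 UMI in the 218 Tom- and none in the 112 Tom+ venous cells (a count of 0 limits the share of cells with a UMI, not of cells that express the gene, to 2.68%), against 8.44 and 11.96 CPM in fibroblasts of the 2 libraries. No UMI of Cdkn2a was detected in Tom+ venous cells at their median depth of 8913 UMIs, which does not show that it was absent.

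The comparison of Tom+ with Tom- venous cells asks how cells sorted as tdTomato-positive differ from cells of the same class sorted as tdTomato-negative. Membership by the rule did not use the sort. Of the Tom- venous cells 52.3% also had a tdTomato UMI, so they are not shown to be free of the mark. The 2 libraries were alike for most genes. Of 3155 measured genes 34 were at least 1.5 times higher in Tom+ (1.08%) and 101 lower (3.2%). The 5th and 95th percentiles of the log2 ratios were -0.47 and 0.39, around a median of 0.01. Of the 5 venous marker genes none passed 1.5 times: the ratios were 0.825 (0.732 to 0.928) for Selp, 0.937 (0.862 to 1.02) for Lrg1, 1.05 (0.971 to 1.14) for Vwf, 1.31 (1.22 to 1.42) for Plvap and 1.06 (0.976 to 1.15) for Tmem252. Selp and Lrg1 chose the cells in both libraries, so their ratios are partly set by the rule and are a description. Ackr1 was at 1.22 (1.03 to 1.44), Slco2a1 at 1.03 (0.917 to 1.15) and Nr2f2 at 1.13 (0.997 to 1.27). Without the urothelium-rich cells the ratio was 0.702 for Selp, 0.801 for Lrg1, 0.917 for Vwf, 1.19 for Plvap, 0.835 for Tmem252 and 0.9497 for Ackr1. In that comparison 45 genes were higher, of which 21 were among the 34, and 66 lower, of which 36 were among the 101.

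The highest genes in Tom+ were led by the reporter, Gt(ROSA)26Sor and Igfbp3. Igfbp3, a secreted binding protein of insulin-like growth factors, was 33.3 CPM in Tom- against 98.5 in Tom+ venous cells, a ratio of 2.96 (2.23 to 3.93). The share of cells with a UMI was 12.4% and 15.2%, and 1 Tom+ cell held 31 of the 119 Tom+ UMIs, without which the level was 73.6 CPM. Igfbp3 was 878 and 584 CPM in capillary cells. In venous cells with at least 6 UMIs of Selp and Lrg1, a threshold chosen after seeing the data, its log2 ratio was -0.03, and over all genes 49 were then higher and 84 lower in Tom+.

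Next by ratio were Ctnnbl1 (1.99, 1.42 to 2.77), Jam3, the extracellular matrix gene Fbln2, Ccdc85b, the nuclear body gene Sp110, Thrsp, the phosphatidylinositol transfer protein gene Pitpnc1, Efnb2, Cnot3 and Nmi. Jam3 was 36.3 CPM in Tom- against 69.5 in Tom+ (1.92, 1.42 to 2.59), Fbln2 91.03 and 163.9 CPM (1.80, 1.49 to 2.18) and the arterial ephrin gene Efnb2 40.3 and 68.7 CPM (1.70, 1.26 to 2.29). These 3 were each lower in Tom- venous than in Tom- capillary cells, at ratios of 0.154, 0.404 and 0.228. A low Tom- venous level also helped to pick these genes, so low ratios were partly set in advance and nothing is read from them. In the Tom+ library the ratios of venous over capillary cells were 0.357 for Jam3, 0.982 (0.732 to 1.33) for Fbln2 and 0.549 for Efnb2. Of the 34 higher genes, 24 were also measured against capillary cells. In both libraries 7 of the 24 were lower in venous than in capillary cells and 2 higher, beside 253 and 140 of all 3254 genes. The same Tom- venous levels enter this count. Cells near the threshold, counted above, carried capillary genes, and their part in these differences was not tested. With at least 6 UMIs of Selp and Lrg1 the log2 ratios were 0.35 for Jam3 and 0.48 for Efnb2, both under 1.5 times, and 0.67 for Fbln2. Efnb2 came under 1.5 times in 4 of 15 alternatives, down to 0.38 with the threshold scaled by depth, and Fbln2 in 1, at 0.46 after thinning.

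**Figure D4:**
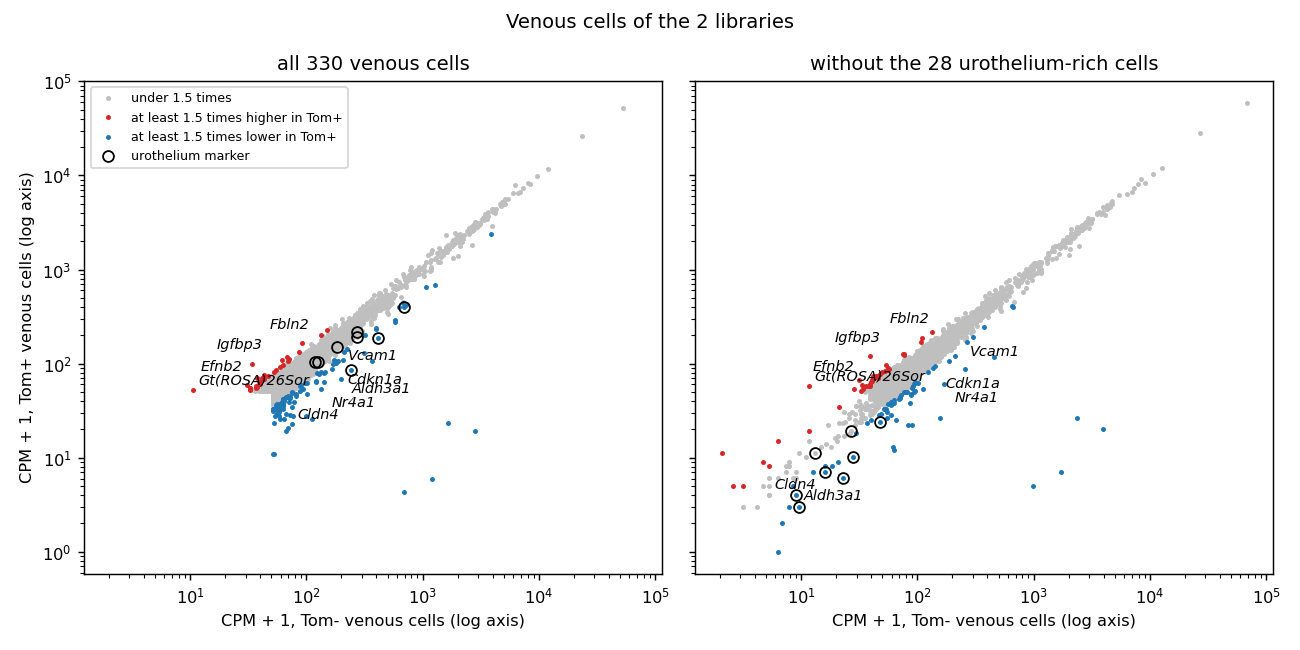
CPM plus 1 of measured genes in Tom- (x) and Tom+ (y) venous cells on log axes, tdTomato left out, for all 330 venous cells (left) and without the urothelium-rich cells (right). Most genes lie near the diagonal; circled urothelial markers and genes such as Aldh3a1 and Cldn4 lose most of their level without those cells, while Igfbp3 and Nr4a1 stay off the diagonal.

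Genes lower in Tom+ venous cells included some that belong to other classes. Of the 101, 17 were markers of non-endothelial classes or at a level that free RNA from other cells could give. The share of such genes among all measured genes was not counted, so nothing is read from this count. Plac8 was 51.1 CPM in Tom- against 9.93 in Tom+ (0.195, 0.0981 to 0.351), and 383 CPM in Tom- fibroblasts. Svs2, a seminal vesicle secretory protein gene, was 110.6 and 24.8 CPM (0.224, 0.149 to 0.327) in venous cells, and 115 and 18.8 CPM in fibroblasts of the 2 libraries. Fibroblast markers summed to 917 and 287 CPM in the same venous cells, and their part in these differences was not tested.

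The genes Gsdmc2, Cldn4, Aldh3a1, Cldn7, Sowahc, Marcksl1, Trf and Sh3gl2, all at 170.1 CPM or more in Tom- urothelium, were also among the 12 lowest. Trf was higher still in Tom- mesothelium, at 515 CPM against 353 CPM in Tom- urothelium. Aldh3a1, an aldehyde dehydrogenase gene, was 198 CPM in Tom- against 67.9 in Tom+ (0.343, 0.269 to 0.434). With the urothelium-rich cells left out, Cldn7 turned to a ratio of 2.53 (0.427 to 17.2) and Trf to 1.33, and Cldn4, Sowahc and Sh3gl2 stood at 0.710, 0.737 and 0.631. Aldh3a1 was at 0.541 (0.130 to 1.72), Gsdmc2 had no UMI left in Tom+, and Marcksl1 was at 0.410 (0.165 to 0.894). In the comparison without Scrublet doublets the log2 ratio of Marcksl1 was -0.39, under 1.5 times.

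Immediate-early and stress genes were also among the lower genes, which were 3.2% of all measured genes, beside 1.08% higher. Nr4a1, an orphan nuclear receptor gene induced within minutes of a stimulus, was 132.5 CPM in Tom- against 52.98 in Tom+ (0.400, 0.302 to 0.523) with a UMI in 35.3% and 24.1% of cells, and the ratio without the urothelium-rich cells was 0.355. The metallothionein gene Mt2 was 99.9 and 46.4 CPM (0.464, 0.342 to 0.621; 0.523 without them). Of 21 measured dissociation and immediate-early genes, 3 were lower in Tom+ (Nr4a1, Ier2 at 0.650 and Btg2 at 0.633) and none higher, at a median log2 ratio of -0.26 against 0.01 over all genes. Fos was 2672 and 1832 CPM (0.686), Fosb 0.674 and Junb 0.736. Without the urothelium-rich cells the median was -0.25, and Socs3 was at 0.605 instead of 0.718.

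Vcam1 was the 1 measured adhesion gene lower by at least 1.5 times, at 171 CPM in Tom- against 108 in Tom+ (0.634, 0.518 to 0.772), with a UMI in 52.3% and 43.8% of cells. Without the urothelium-rich cells it was 209.5 and 119 CPM, a ratio of 0.567. Vcam1 was 227 CPM in Tom- against 179.6 in Tom+ fibroblasts, in 69.8% and 57.9% of them, and the part of fibroblast RNA in this difference was not tested. Icam1 was at 0.810 (0.635 to 1.03). Of 15 measured adhesion genes Jam3 was higher, Vcam1 lower and 13 lay between, at a median of 0.16. Over all measured genes 1.08% were higher in Tom+ and 3.2% lower.

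Senescence genes were examined because the mark is driven by p16. Cdkn1a, which encodes the cell cycle inhibitor p21, was 179 CPM in Tom- against 101 in Tom+ venous cells (0.564, 0.458 to 0.689), with a UMI in 53.2% and 36.6% of cells. Without the urothelium-rich cells it was 139.9 and 92.7 CPM, a ratio of 0.663 (0.517 to 0.843), and Tom- urothelium had 215 CPM. The log2 ratio of Cdkn1a, -0.82 with all venous cells, came under 1.5 times in 2 of 15 alternatives and was -0.23 at its nearest to 0. Of 8 measured senescence regulators and p53 targets 3 were lower in Tom+, Cdkn1a, Phlda3 (0.542, 0.384 to 0.751) and Btg2, and none higher, at a median of -0.20. The median was -0.01 and 1 of 7 was lower without the urothelium-rich cells. With all venous cells, 3.2% of all measured genes were lower in Tom+ and 1.08% higher. Of 10 senescence-linked secreted factors Igfbp3 was higher and none lower (median -0.08), with Cxcl12 at 199 and 149 CPM (0.747, 0.627 to 0.886) and Igfbp4 at 1.34.

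Of the interferon-stimulated and antigen presentation genes, 1 passed 1.5 times, beside 1.08% of all measured genes higher in Tom+ and 3.2% lower. Bst2, the antiviral membrane protein tetherin, was 149.5 and 227 CPM (1.52, 1.30 to 1.77) and was the 1 of 13 measured interferon-stimulated genes past 1.5 times. The median of the 13 was 0.28, with Rsad2 at 1.47, and 0.12 without the urothelium-rich cells, where Bst2 was at 1.44. Ifit3 was under the level for measurement at 17.8 and 47.2 CPM (2.66, 1.78 to 3.98), and without those cells it was measured, at 2.45. All 11 measured antigen presentation genes had a ratio above 1 and none passed 1.5 times, from 0.16 to 0.42 on the log2 scale, with a median of 0.29. The median of the antigen presentation genes without the urothelium-rich cells was 0.19, and 1 of then 15 measured genes, H2-Eb1, passed 1.5 times (1.53). Both medians stood beside 0.01 over all genes (0.02 without those cells) and 0.25 over 13 measured pan-endothelial markers. When Scrublet doublets were left out, each of the 2 medians was 0.14, and with the threshold scaled by depth that of the interferon-stimulated genes was 0.03.

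The other lists held few differences, beside 1.08% of all measured genes higher in Tom+ and 3.2% lower. Of 14 BMP and TGF-beta genes Id1 was lower, at 394 and 231 CPM (0.585, 0.511 to 0.669), but at 1.05 without the urothelium-rich cells, while Eng was at 1.39. Fbln2 was higher and the laminin gene Lama5 lower (0.641) among 19 matrix genes, Pdgfb was higher (1.54, 1.21 to 1.97) among 10 VEGF and angiopoietin genes but at 1.44 without the urothelium-rich cells, and Efnb2 was the 1 higher of 15 arteriovenous genes. Cd63, a membrane protein of granules and lysosomes, was lower (0.564) among 11 storage granule genes. None of 10 coagulation, 16 junction, 12 STAT3, 16 flow-responsive, 12 lipid and 6 vasoactive genes passed 1.5 times in either direction. Without the urothelium-rich cells Socs3, of the STAT3 list, and Foxc1 (0.660) were lower and the lipid gene Fabp5 (1.71) higher.

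**Figure D5:**
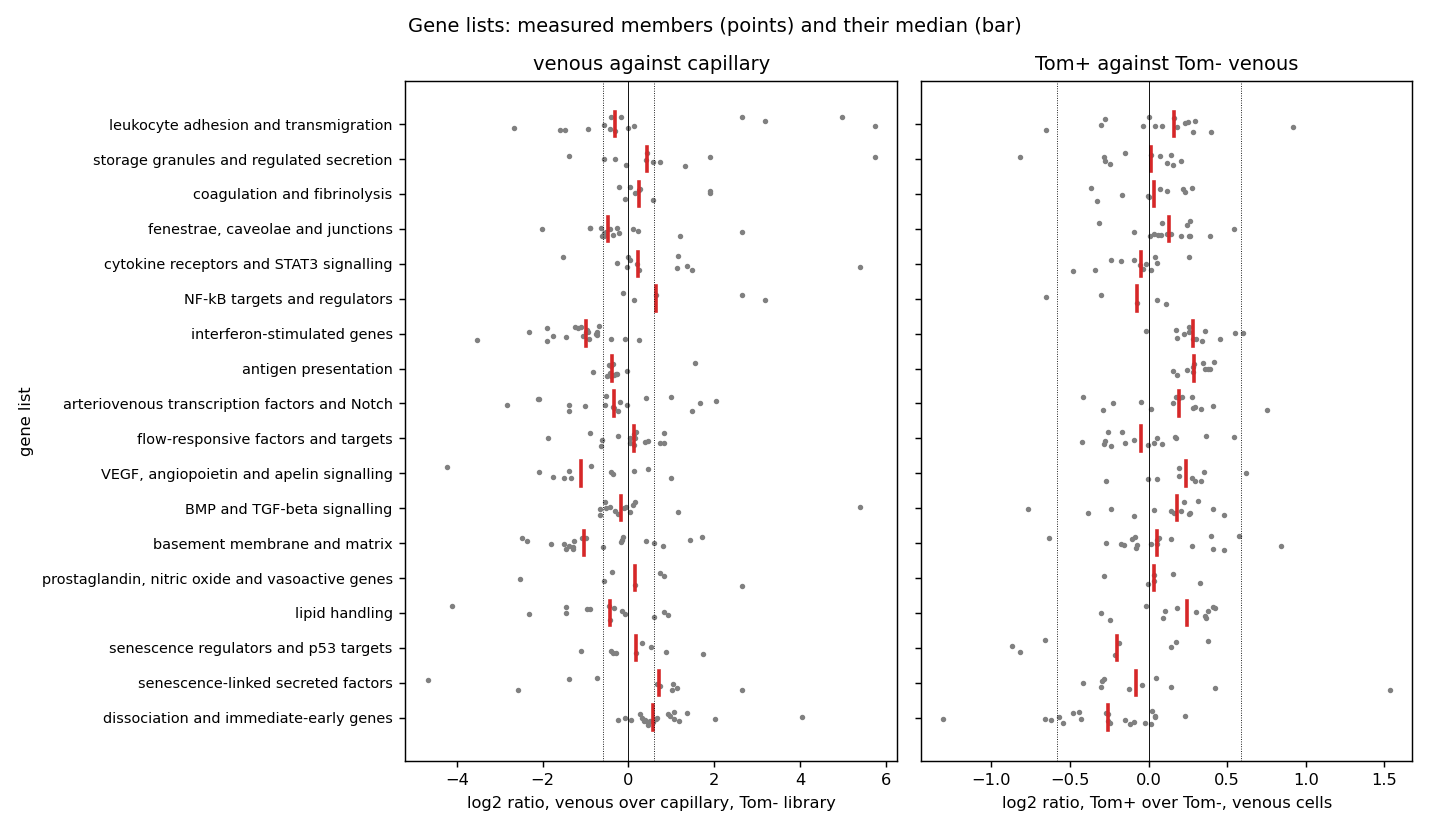
Log2 ratios of the measured members of 18 gene lists (points) with the list median (red bar): venous over capillary cells in the Tom- library (left) and Tom+ over Tom- venous cells (right). Dotted lines mark 1.5 times; the points spread widely on the left, with interferon-stimulated genes at a median of -0.98, and stay close to 0 on the right.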

How the data were processed

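Cells from the bladder of 1 mouse were profiled as 2 droplet libraries (10x Genomics 3' chemistry, per the labels' protocols). The authors deposited filtered matrices of whole-number UMI counts for 31054 features. Cell Ranger 7.0.0 and the build mm10 are named in the submitters' processing notes, while the matrix header gives software version 3.0.2, per the file headers. The Tom- library held 197232860 UMIs in 13551 barcodes and the Tom+ library 34455896 in 2783. Of the barcodes 966 occurred in both, and a cell with a shared barcode was used only where its copy was over 10 times deeper, which left out 676 and 152 cells that passed the filters.

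Counts were summed over cells and given as CPM of the summed UMIs, with exact Poisson or conditional binomial 95% intervals, and Clopper-Pearson intervals for shares. These cover counting error only, since UMIs of 1 cell and cells of 1 animal are not replicates. Log2 ratios had 1 CPM added. A level against 0 UMIs was bounded with 3 counts. With 1 library per group no test was possible, and no model was fitted. Thinning drew 2000 UMIs per cell. Scrublet (in scanpy 1.11.5) marked 690 of 10595 Tom- and 10 of 1893 Tom+ cells as doublets. Marked cells stayed in, and leaving them out was an alternative. Free RNA was called possible where a venous level was under 5% of the level in another class.

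Genes were named by a rule: the 15 highest and 6 lowest venous over capillary, the 12 highest and 12 lowest Tom+ over Tom- (at least 50 CPM and a UMI in 10% of cells, without gate genes, tdTomato, mitochondrial, ribosomal, haemoglobin and predicted genes, and genes that mark non-endothelial classes or could be free RNA), the 5 venous markers, Cdkn1a, Cdkn2a, Cxcl12, tdTomato and members of 33 gene lists. A gene that the rule names is not reported here. The members and lists were chosen with earlier results of these data known. F8, Sele, Ifit3, H2-Eb1, Foxc1 and Fabp5 belong to those lists. The computation was tested on simulated data for Tom+ against Tom- venous cells over 2937 genes: of 40 genes changed 2-fold upward 99.6% passed 1.5 times, of those changed 1.5-fold 49.6%, and of unchanged genes 0.164%. The simulated sums were independent Poisson draws from a pooled level per gene, without spread between cells, mixed droplets or other differences between libraries. These shares check the calculation under counting error and are not error rates of the calls above. Python 3.11.15, numpy 2.4.6, pandas 2.3.3, scipy 1.17.1, R 4.3.3 and edgeR 4.0.16 (for TMM scaling factors of the counts, as an alternative) were used. Promoters came from RefSeq (GRCm38.p6) and gene positions from GENCODE vM21.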

Additional observations from a re-analysis of the deposited data

Results flagged for a closer look

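Among 225 named and list genes measured in both classes, 9 differed by at least 1.5 times between Tom+ and Tom- in venous cells and in the opposite direction in capillary cells. The named genes include those chosen for their extreme Tom+ over Tom- ratios in venous cells. The share of such genes among all measured genes was not counted, so nothing is read from this count. With 1 library per group the difference between the classes was not tested. In 7 of the 9, genes high in urothelium, the venous ratio was low and the capillary ratio high: Sprr1a 0.451 and 1.65, Sh3gl2 0.461 and 1.58, Sowahc 0.427 and 1.80, Aldh3a1 0.343 and 2.62, Cldn7 0.381 and 1.86, Krt15 0.582 and 1.99, and Krt7 0.620 and 1.70. Urothelium-rich cells held 30.4% of the Tom- and 17.8% of the Tom+ venous UMIs, and 23.1% and 44.1% of the capillary UMIs. Without those cells both ratios were below 1 for Sprr1a (0.334 and 0.634), Sh3gl2 (0.631 and 0.618), Aldh3a1 (0.541 and 0.325) and Krt15 (0.495 and 0.369). Krt7 was then at 0.849 and 1.07, and Sowahc at 0.737 and 2.65 (0.442 to 11.6). Cldn7 turned to 2.53 in venous cells and had no UMI in Tom+ capillary cells.

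The ratio of Igfbp3 was 2.96 in venous and 0.666 in capillary cells, and 3.10 and 0.858 without the urothelium-rich cells. The ratio of Cdkn1a was 0.564 in venous and 2.57 in capillary cells, and 0.663 and 3.51 without them. A single Tom+ capillary cell held 38 of the 114 Cdkn1a UMIs of its class, and without that cell the level was 214 instead of 317 CPM, against 123 CPM in Tom- capillary cells.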

How the results depend on the processing

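The venous share of blood endothelium was 60.6% in Tom+ with at least 3 UMIs of Selp and Lrg1, 29.6% in Tom- and 58.75% in Tom+ with Selp required, and 22.4% and 35.6% with thinning before selection. Genes higher and lower in venous than capillary cells numbered 350 and 622 with a filter at 10 CPM and 88 and 135 at 100 CPM, and 386 were lower without the urothelium-rich cells. Genes higher and lower in Tom+ numbered 325 and 744 at 10 CPM, 9 and 40 at 100 CPM and 382 and 376 after thinning to 2000 UMIs. The lower genes were 59 without Scrublet doublets, 57 with the threshold scaled by depth and 66 without the urothelium-rich cells, and the higher genes 62 with fibroblast genes under 10 per 10000 and 70 with equal weight per cell. Higher genes were 25.2% of the calls, but 38.5% without Scrublet doublets, 50.4% thinned, 42.9% with equal weight, 36.8% with at least 6 UMIs, 40.5% without the urothelium-rich cells and 41.2% with thinning before selection. TMM scaling gave 47 higher and 89 lower genes (34.6% higher). Opposite signs appeared for Igfbp3 with at least 6 UMIs (log2 -0.030) and, without the urothelium-rich cells, for Cldn7 (0.95) and Trf (0.39). The filters differ in the number of genes by construction, and otherwise the cause was not tested. Leaving out the urothelium-rich cells and the threshold of 6 UMIs were chosen after seeing the data. Of the 15 highest and 6 lowest genes against capillary cells, Selp, Lrg1, Tmem252 and Cxcl12, none came under 1.5 times in 13 alternatives. Vwf and Plvap, under it from the start, had log2 ratios of 0.24 and -0.25 in the library nearer 0 with no shared barcodes. Of the genes named for Tom+, Cnot3, Gsdmc2, Nr4a1, Plac8, Sp110, Svs2, Gt(ROSA)26Sor and tdTomato did not in 15. No paired analysis was possible because each group has 1 library, and no library could be left out. Depth limits genes under 50 CPM, Cdkn2a among them.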
